A study of Mus musculus with 12 samples.

Results

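Total skin keratinocytes were compared between the 2 sets in which the study collected its samples. The 4 arrays with this label, of 12 in all, were taken, 1 of each genotype in each set, and each set 2 array was set against the set 1 array of its own genotype. The other 8 arrays held hair follicle stem cells sorted from the hair germ (HG) or the bulge. All mice were females of 72 to 74 days on a mixed C57BL/6 and CD1 background, and back skin was collected while hair follicles passed from their second telogen, a rest, into anagen, the growth that follows. The genotypes are TßRII-Het and TßRII-cKO (Het and cKO below), a control and a conditional knockout of Tgfbr2, which encodes TGF-beta receptor type II. Mice of both carried the Rosa26-YFP reporter, and a total keratinocyte was any cell sorted as YFP positive. The Cre driver, the exact alleles, the number of mice per array and what separates a set (day, litter or hybridization) are details the sources used here do not give. The labels call the stem cells of set 1 quiescent in both genotypes, and those of set 2 activated in Het and aberrantly quiescent in cKO. They give no such state for total keratinocytes. Whatever else differed between the 2 collections cannot be told apart from the set.

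A hair follicle passes through cycles of rest (telogen), growth (anagen) and regression. At the start of anagen the hair germ divides first, and its descendants build the hair shaft and, around it, the inner root sheath, a rigid sleeve that moulds the shaft. Each layer is known for its own keratins, and the sheath keratins and trichohyalin appear before the hair keratins and keratin-associated proteins of the shaft. TGF-beta and BMP signals are known regulators of when the stem cells leave rest.

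Keratins of the inner root sheath were among the genes with the largest differences between the sets, led by Krt25, and 5 of them have promoters that can be set side by side. Krt25, Krt27 and Krt28 are type I keratins of the inner root sheath in 1 cluster, where Krt27 and Krt28 are direct neighbours, and Krt71 and Krt73 are type II keratins of the same layer in another. The lines give the 250 bases before each start site, 5′ to 3′ in the direction of the gene, from RefSeq on GRCm38.p6. Capitals mark TATAAA (the TATA box), AGATAA (a core of GATA factor sites) and CTTTGA (a core of Tcf/Lef sites), searched on both strands.

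Krt25 (chr11:99322952-99323201, minus strand): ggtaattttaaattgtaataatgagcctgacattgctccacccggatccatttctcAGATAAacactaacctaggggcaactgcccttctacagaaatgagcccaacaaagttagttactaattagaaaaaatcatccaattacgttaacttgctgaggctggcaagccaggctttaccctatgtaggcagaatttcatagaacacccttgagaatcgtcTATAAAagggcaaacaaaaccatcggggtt
Krt27 (chr11:99351119-99351368, minus strand): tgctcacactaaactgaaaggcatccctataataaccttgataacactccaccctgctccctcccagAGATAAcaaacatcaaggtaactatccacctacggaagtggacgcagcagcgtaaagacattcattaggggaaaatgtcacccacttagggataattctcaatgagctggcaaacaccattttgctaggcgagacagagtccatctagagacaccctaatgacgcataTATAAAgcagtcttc
Krt28 (chr11:99374904-99375153, minus strand): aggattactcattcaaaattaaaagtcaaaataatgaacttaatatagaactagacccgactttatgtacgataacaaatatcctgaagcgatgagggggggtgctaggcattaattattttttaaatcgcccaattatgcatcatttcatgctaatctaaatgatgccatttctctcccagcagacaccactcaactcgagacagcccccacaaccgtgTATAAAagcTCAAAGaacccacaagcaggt
Krt71 (chr15:101743098-101743347, minus strand): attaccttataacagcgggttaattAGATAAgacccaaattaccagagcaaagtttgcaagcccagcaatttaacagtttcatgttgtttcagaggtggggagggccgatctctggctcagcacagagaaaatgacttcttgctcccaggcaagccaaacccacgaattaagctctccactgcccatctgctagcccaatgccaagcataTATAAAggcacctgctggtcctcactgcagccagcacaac
Krt73 (chr15:101802361-101802610, minus strand): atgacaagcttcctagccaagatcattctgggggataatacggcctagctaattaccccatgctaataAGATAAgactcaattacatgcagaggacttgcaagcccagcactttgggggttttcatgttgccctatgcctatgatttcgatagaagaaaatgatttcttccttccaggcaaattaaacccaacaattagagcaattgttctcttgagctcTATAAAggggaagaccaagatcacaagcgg

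TATAAA was in 5 of these 5 windows, against 12.4% of the 32851 windows of this length in the table and 6.62% of the 11526 windows of genes tested here. Its first base was 30 bases before the start site in Krt25, Krt28 and Krt73, 40 bases in Krt71 and only 15 in Krt27. AGATAA was in 4 of the 5, the exception being Krt28, against 9.99% of all windows. CTTTGA was in 1 of the 5, Krt28, on the opposite strand, against 13.8% of all windows. The 5 genes were picked for their values and are relatives, so these are descriptions of their letters, not of sites in use.

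Levels are MAS5 signal in log2, so 1 unit is a 2-fold difference. Signals below 20.7 were raised to that floor, 4.37 in log2, and a difference from the floor is a lower bound. Per set there were 2 arrays, 1 a genotype. Tgfbr2 was at 11.96 in Het and 12.09 in cKO of set 1, and at 11.68 and 11.78 in set 2. It was thus not lower on the cKO arrays. The sources used here do not place its probes against the deleted part, so this level checks nothing about the labels. Keratins 5 and 14, which define basal keratinocytes, were between 14.77 and 15.35 on the 4 arrays. Other cells' genes were measured too, with Col1a2 of fibroblasts at 11.96 to 14.01 and Cd3g of T cells at 8.78 to 10.25. Pecam1 of endothelium was at the floor on 3 arrays and Hba-a1 of red cells on all 4. In RNA of a whole sort, fewer cells of a type and less RNA per cell cannot be told apart. Median signal was 81.1 and 79.8 in set 1 and 65.5 and 66.3 in set 2 (Het, then cKO), all scaled to the same trimmed mean.

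Both arrays labelled cKO stood apart in a group of genes. The cKO array of set 1 was alone in milk protein RNA, with Csn2 at 13.46 against 4.37 on each of the other 3 arrays. Wap was at 12.37 there and at most 5.07 elsewhere, and Csn3 at 11.54 and at most 5.34. The median of 17 milk protein and mammary gland genes was 0.07 in the Het pair and -2.07 in the cKO pair. The cKO array of set 2 was the highest of the 4 for 18 of 24 immediate early genes (22.5% of all measured genes), which cells switch on within minutes of a stimulus. The array values and the list medians of each genotype are therefore given below, and the Het pair holds neither array.

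The largest rises in set 2 were in genes of the growing hair. Krt25 was at 5.62 in Het and 4.37 (the floor) in cKO of set 1, and at 12.74 and 10.05 in set 2. Both set 2 arrays were far above both set 1 arrays, with a mean difference of 6.40 (SE 0.35, limma adjusted p = 0.0020), a ratio of at least 84.5. Krt71 was at 5.93 and 5.28 in set 1 and at 10.35 and 8.42 in set 2, a rise of 3.78 (SE 0.38, adjusted p = 0.014). Tchh, trichohyalin, the protein that hardens the sheath, was at 7.47 and 7.04 in set 1 and at 10.98 and 9.57 in set 2, a rise of 3.02 (SE 0.27, adjusted p = 0.0099). Among keratins of the shaft, Krt35 was at most at 5.88 in set 1 and at 12.34 and 9.48 in set 2, a rise of 5.47 (SE 0.72, adjusted p = 0.027). Krtap8-1, a keratin-associated protein that cross-links shaft keratins, was at the floor on both set 1 arrays and at 12.29 in Het and 7.92 in cKO of set 2, a rise of at least 5.73 (adjusted p = 0.031). For all of these the Het array of set 2 was the highest. All but Tchh entered the test through their set 2 arrays alone, so their p-values support nothing beyond the array values.

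Ranked by the smaller of the 2 genotypes' differences, the 12 genes highest in set 2 were Krt25, Krt35, Krtap8-1, Gjb2, Gnmt, Prr9, Krt71, S100a3, Krt73, Cmah, Krt27 and Krt28. All 12 passed the test, with adjusted p from 0.0020 to 0.040, but 9 of them, all except Gjb2, Gnmt and Krt28, entered it through their set 2 arrays alone, so this count supports nothing. With the floor at the pooled median Krtap8-1, S100a3, Krt73 and Cmah no longer passed, and Cmah also not with no floor. Of the 12, 8 belong to the list of hair shaft and inner root sheath genes. Gjb2, which encodes the gap junction protein connexin 26, was at 7.86 and 7.46 in set 1 and at 12.58 and 10.85 in set 2, a rise of 4.05 (SE 0.30, adjusted p = 0.0085). Gnmt, a methyltransferase that uses up S-adenosylmethionine, was at 6.65 and 5.37 in set 1 and at 10.45 and 8.69 in set 2, a rise of 3.56 (SE 0.28, adjusted p = 0.0091). S100a3, a calcium-binding protein of the hair cuticle, was at 4.37 and 4.93 in set 1 and at 10.60 and 7.96 in set 2. Cmah, which hydroxylates sialic acid, was at 4.37 and 4.49 in set 1 and at 7.74 and 7.32 in set 2. It showed the smallest gap between the genotypes in set 2 of these genes. The difference was larger in Het than in cKO for all 12.

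**Figure D1:**
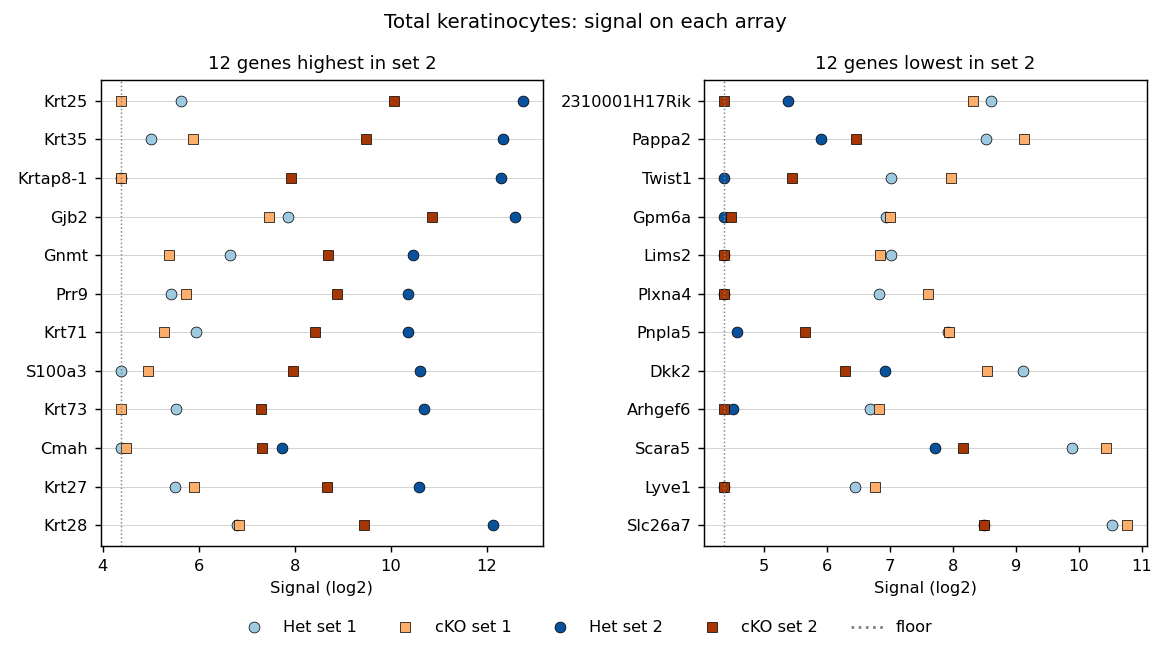
Signal (log2) on each of the 4 total keratinocyte arrays for the 12 genes highest and the 12 lowest in set 2 by the smaller of the 2 genotypes' differences, with circles for Het, squares for cKO, pale for set 1 and dark for set 2, and the floor as a dotted line. In the left panel Het of set 2 is highest for each gene, with Krt25 at 12.74, and in the right panel the dark points lie left of the pale ones, 3 genes having both at the floor.

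Over all genes, 88 of 11121 tested were higher in set 2 (0.791% called) and 130 were lower (1.17% called), 1.96% together, by limma at an adjusted p under 0.05, with genotype as a block. Unadjusted p was under 0.05 for 2908. All 218 moved the same way in both genotypes, which is no separate support. The gap between the genotypes is the only residual of this test, so a gene with opposite signs cannot readily pass. This call rests on 1 residual degree of freedom and on the pairing by genotype. Without the replicate block no gene passed (2495 with an unadjusted p under 0.05), and likewise without the trend (2380) or without the filter (2369). Leaving out the Het or the cKO array of set 1 left no call, and leaving out Het or cKO of set 2 gave 269 higher and 643 lower or 351 higher and 400 lower. Array values are therefore given beside each test, and every p below is from this fit unless another is named. The shares of 0.791% higher and 1.17% lower are the background for each count of called list members.

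A count without a test gave 65 genes at least 2-fold higher in both genotypes (0.584%) and 188 at least 2-fold lower (1.69%). The same count between the genotypes, over both sets, was 23 and 35. After quantile normalization the split of 65 against 188 became 104 against 98, so the excess of lower genes depends on the scaling. Of the 218 called genes, 105 were among these 253. Both set 2 arrays were above both set 1 arrays for 24.6% of the tested genes and below them for 30.3%. Of the 65 genes, only Krt27 with Krt28 and Snrpd3 with Lrrc75b were direct neighbours on a chromosome, and none of the 188 were, with 63 of the 65 and 171 of the 188 placed among RefSeq's protein-coding genes. The Het pair differed at least 2-fold in 1046 genes and the cKO pair in 914, against 387 between the genotypes in set 1 and 831 in set 2. Arrays of 1 set correlated at 0.979 (set 1) and 0.975 (set 2) over 45037 probe sets, and arrays of 1 genotype across the sets at 0.964 (Het) and 0.968 (cKO). Across 11121 genes the Het and cKO set differences correlated at 0.50, a description, since genes are not independent.

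**Figure D2:**
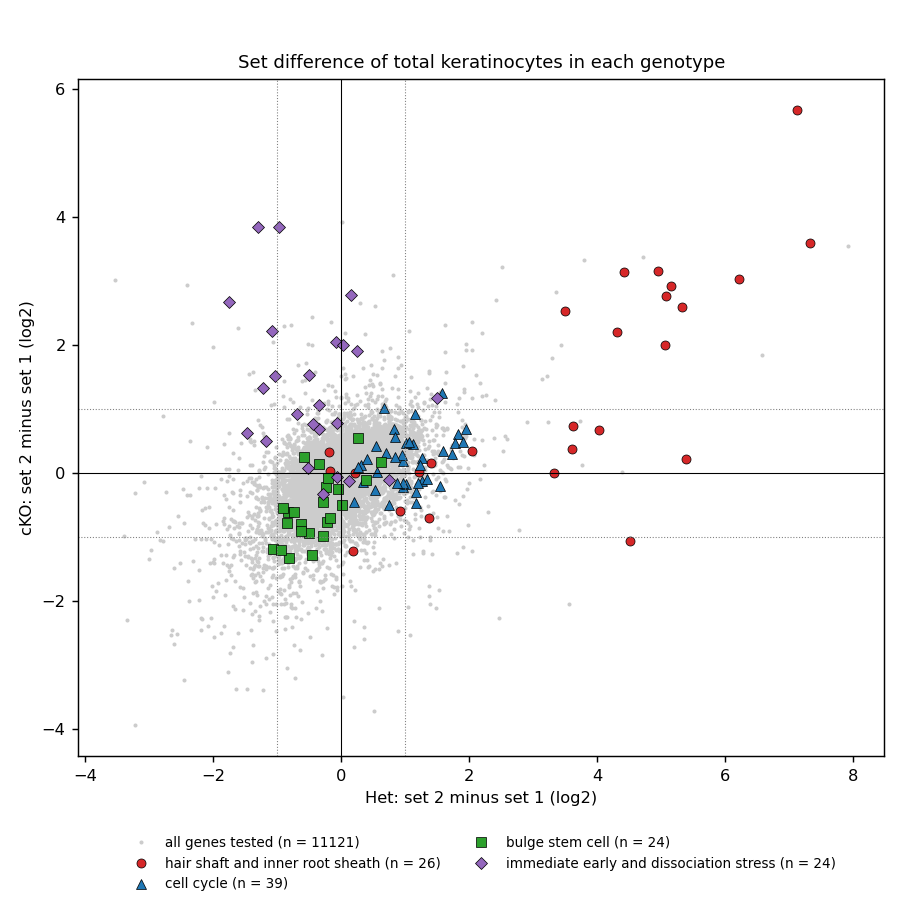
Set 2 minus set 1 (log2) in Het (x axis) against that in cKO (y axis) for the 11121 genes tested, in grey, and for the measured members of 4 lists, in colour, with dotted lines at 2-fold. Hair shaft and sheath genes (red) extend to 7.34 in Het and 5.68 in cKO, cell cycle genes (blue) lie right of 0, bulge genes (green) are mostly low on both axes, and immediate early genes (purple) reach 3.85 on the cKO axis.

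Of 26 measured hair shaft and inner root sheath genes, 11 rose, none fell and 6 were not tested for low signal. The median over all 26 was 2.27, with 3.83 in Het and 0.52 in cKO, against 0.00 over all measured genes in each. Both set 2 arrays were above both set 1 arrays for 17 of the 26, against 18.7% of all measured genes. Of the tested members, 9 passed the signal filter only through set 2, so the call count alone supports nothing. The 11 that rose were the 5 sheath keratins shown above, Tchh, Krt35, Krt31, Krt75, Prr9 and S100a3. Krt75, a keratin of the companion layer that lies outside the sheath, was at 4.88 and 5.71 in set 1 and at 9.19 and 7.92 in set 2.

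A second group of shaft genes was high on the Het array of set 2 alone. Krt33a was at 5.89 and 6.96 in set 1, at 11.27 in Het and at 7.17 in cKO of set 2. Krt33b was at 4.37 and 5.43 in set 1, at 8.89 in Het and at the floor in cKO of set 2. Krt34 was at the floor on 3 arrays and at 7.70 in Het of set 2. All 3 are hair keratins of the shaft. Krt33a did not pass (adjusted p = 0.13), and Krt33b and Krt34 were too low to test. Of the keratin-associated proteins, 1 of 15 measured rose (Krtap8-1), and 12 were too low to test. Krtap11-1 was at 4.37 and 4.86 in set 1 and at 10.95 and 6.70 in set 2 (adjusted p = 0.055). Krtap15 was at the floor in set 1 and at 10.18 in Het and 5.11 in cKO of set 2. The members closest to 0 included 2 transcription factors. Gata3, a transcription factor of the sheath lineage, was between 13.12 and 13.55 on the 4 arrays, and Foxn1, a regulator of shaft differentiation, between 8.36 and 8.97.

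Genes of the hair germ and the start of growth were mostly higher in Het of set 2. Msx1, a homeobox factor, was at 6.15 and 6.05 in set 1 and at 9.36 and 7.56 in set 2, a rise of 2.36 (SE 0.44, adjusted p = 0.049), the 1 call among 17 measured genes and one that entered the test only through set 2. Shh, the signal that drives the downgrowth of the new follicle, was at 6.45 in Het and 7.95 in cKO of set 1. In set 2 it was at 10.85 in Het and 7.96 in cKO, so only Het of set 2 stood out (adjusted p = 0.15). Msx2 was at 7.86 and 8.08 in set 1 and at 9.91 and 8.42 in set 2. The list's median was 0.74 in Het and 0.013 in cKO. Both set 2 arrays were above both set 1 arrays for 9 of 17 (18.7% of all measured genes) and below for none (22.7%). Of 10 measured Hedgehog response genes none passed, with a median of -0.053 in Het and -0.37 in cKO. Of 17 Wnt response genes 1 fell (Twist1, which entered the test only through set 1) and none rose, with a median of -0.17 in Het and -0.36 in cKO.

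Cell cycle genes were highest on the Het array of set 2, for 39 of 39 measured members against 22.7% of all measured genes. Their median was 1.01 in Het and 0.21 in cKO. Both set 2 arrays were above both set 1 arrays for 21 of 39 (18.7% of all measured genes) and below for none (22.7%). Cenpa and Cdc20 passed the test, where 0.791% of all tested genes were called higher. Cenpa, the histone variant that marks centromeres, was at 9.52 and 8.85 in set 1 and at 11.09 and 10.11 in set 2, a rise of 1.41 (SE 0.18, adjusted p = 0.025). Cdc20, which triggers anaphase, was at 11.16 and 10.48 in set 1 and at 12.32 and 11.40 in set 2, a rise of 1.04 (SE 0.16, adjusted p = 0.031). Mki67 was at 10.56 and 10.39 in set 1, at 11.53 in Het and at 10.17 in cKO of set 2, so the genotypes lay on opposite sides (adjusted p = 0.41). Foxo3 was the 1 call of 14 CDK inhibitor and arrest genes and fell by 0.82 (SE 0.15, adjusted p = 0.046).

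BMP response genes had a median of 0.56, with 0.49 in Het and 0.38 in cKO. The size of this median depends on the processing, since it moved under 5 alternatives and stayed the same under 2, without a change of sign. Of 13 measured, 2 rose (Msx1, the hair germ gene that entered through set 2 alone, and Id3) and none fell. Id3, an inhibitor of bHLH factors and a direct BMP target, was at 10.68 and 10.88 in set 1 and at 11.62 and 11.84 in set 2, a rise of 0.95 (SE 0.15, adjusted p = 0.035). Id1 was at 10.84 and 11.16 in set 1 and at 11.33 and 12.70 in set 2 (adjusted p = 0.059), highest in cKO of set 2. Of 15 BMP ligand, receptor and antagonist genes none passed, with a median of -0.31 in Het and -0.24 in cKO. In the TGF-beta list, 3 of 21 fell and none rose, with a median of -0.11 in Het and -0.15 in cKO. Over all tested genes 1.17% were called lower and 0.791% higher. Both set 2 arrays were above both set 1 arrays for 5 of the 21 (24.6% of all tested genes) and below for 6 (30.3%), so the list as a whole showed no tilt. Ccn2, a secreted target of TGF-beta and of Yap, was at 13.97 and 12.89 in set 1 and at 12.68 and 10.65 in set 2, where it fell by 1.76 (SE 0.22, adjusted p = 0.025). Ltbp1, which holds latent TGF-beta in the matrix, fell by 1.61 (SE 0.22, adjusted p = 0.029), and Tgfbr3, the co-receptor betaglycan, fell by 1.03 (SE 0.15, adjusted p = 0.031).

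**Figure D3:**
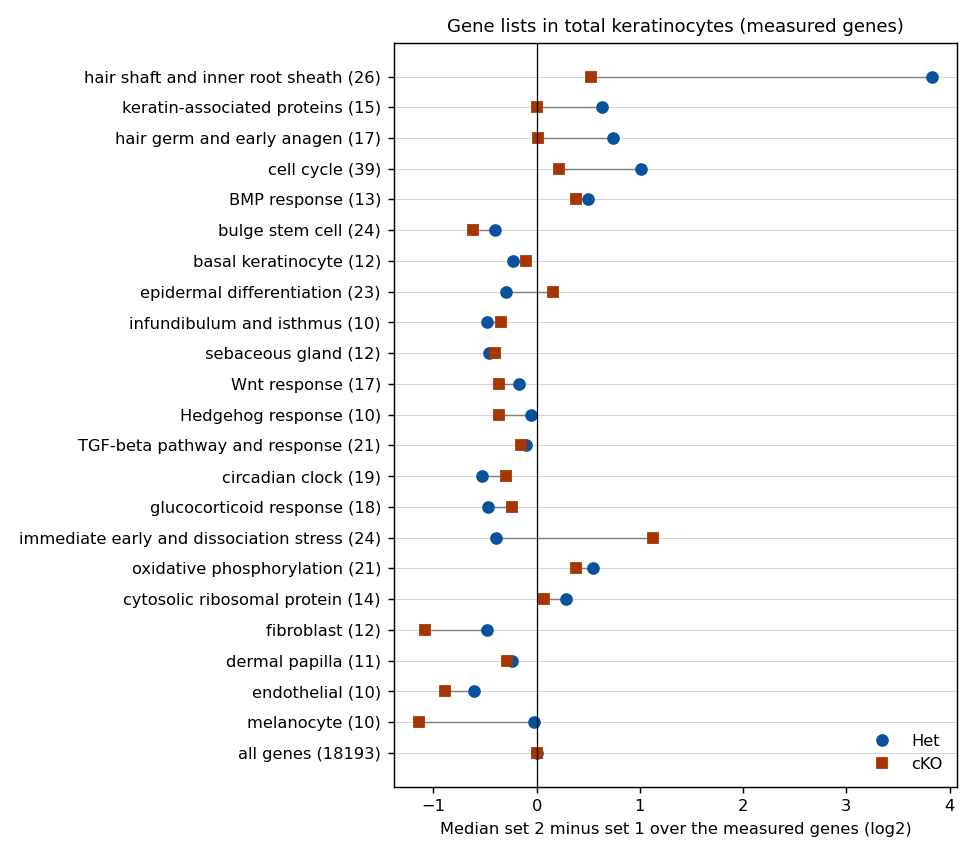
Median difference between the sets (set 2 minus set 1, log2) over all measured genes of 22 lists and over all 18193 genes, in Het (circles) and cKO (squares), with the number of measured genes in brackets. The hair shaft and sheath list lies at 3.83 in Het and 0.52 in cKO, the fibroblast list at -0.48 and -1.08, and the immediate early list at -0.39 and 1.12.

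Bulge stem cell genes had a median of -0.56, with -0.40 in Het and -0.61 in cKO. Both set 2 arrays were below both set 1 arrays for 10 of 24 members, against 22.7% of all measured genes, and the cKO array of set 2 was the lowest for 20 of 24 (24.1% of all measured genes). Foxc1, a factor known to hold bulge cells in rest, was at 10.97 and 10.31 in set 1 and at 10.04 and 9.11 in set 2. It fell by 1.07 (SE 0.18, adjusted p = 0.038) and was the 1 bulge gene that passed. Fgf18, a growth factor of the resting follicle, was at 8.55 and 7.67 in set 1 and at 7.49 and 6.48 in set 2 (adjusted p = 0.069). Cd34, the bulge marker used in the stem cell sort, was at 11.30 and 10.83 in set 1 and at 10.67 and 10.03 in set 2 (adjusted p = 0.055). Nfatc1 and Sox9 differed by -0.72 each without passing.

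Some genes of the sebaceous gland and upper follicle fell, where 1.17% of all tested genes were called lower. Among 12 sebaceous gland genes, Scd3, a fatty acid desaturase, fell by 2.18 (SE 0.37, adjusted p = 0.040) and Far2, which makes the fatty alcohols of wax, fell by 1.61 (SE 0.28, adjusted p = 0.041). Scd3 was at 9.68 and 9.97 in set 1 and at 6.67 and 8.62 in set 2, lowest in Het of set 2. Gata6, a factor of the upper follicle and sebaceous duct, was at 10.58 and 10.14 in set 1 and at 9.37 and 8.15 in set 2, and fell by 1.60 (SE 0.23, adjusted p = 0.031), 1 of 10 in its list. Fa2h, which hydroxylates the fatty acids of barrier lipids, fell by 1.27 (SE 0.22, adjusted p = 0.041), 1 of 18. In Het and cKO the medians were -0.46 and -0.40 (sebaceous) and -0.48 and -0.35 (infundibulum and isthmus). Barrier lipid genes lay on opposite sides of 0, at -0.34 in Het and 0.072 in cKO. No epidermal differentiation gene passed among 23, and their median was -0.29 in Het and 0.16 in cKO. No basal keratinocyte gene passed among 12, with a median of -0.23 in Het and -0.10 in cKO, and of -0.44 over both after quantile normalization (-0.23 before).

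The 12 genes lowest in set 2 by the smaller of the 2 differences were 2310001H17Rik, Pappa2, Twist1, Gpm6a, Lims2, Plxna4, Pnpla5, Dkk2, Arhgef6, Scara5, Lyve1 and Slc26a7. Of these, 8 entered the test through their set 1 arrays alone. Altogether 7 of the 12 passed, including 3 of those 8, and Gpm6a, Lims2, Plxna4, Arhgef6 and Lyve1 did not, with adjusted p of 0.052 to 0.082. Slc26a7, an anion exchanger, was at 10.53 and 10.76 in set 1 and at 8.49 and 8.50 in set 2. It fell by 2.15 (SE 0.18, adjusted p = 0.0097), a difference larger than the gap between the arrays of either set. With the mean of all probe sets it fell by 1.31. Scara5, a receptor for ferritin, was at 9.89 and 10.44 in set 1 and at 7.72 and 8.16 in set 2, and fell by 2.23 (SE 0.20, adjusted p = 0.0099). With the mean of its probe sets the difference was -0.77 and did not pass (adjusted p = 0.12, and 0.0017 to 0.48 over the alternatives). Pappa2, a protease that frees insulin-like growth factor from its binding proteins, was at 8.52 and 9.14 in set 1 and at 5.90 and 6.46 in set 2, and fell by 2.65 (SE 0.29, adjusted p = 0.020). Dkk2, a secreted modulator of Wnt signals, was at 9.11 and 8.54 in set 1 and at 6.92 and 6.28 in set 2, and fell by 2.23 (SE 0.27, adjusted p = 0.024). The differences of Het and cKO lay close together for Pappa2 (-2.62 and -2.68) and Dkk2 (-2.19 and -2.26), and 4 of the 12 differed more in Het. Twist1, a factor of mesenchymal cells, was at 7.03 and 7.97 in set 1 and at the floor and 5.44 in set 2 (adjusted p = 0.046), a call lost under quantile normalization and with no floor.

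Several clock and glucocorticoid response genes fell, where 1.17% of all tested genes were called lower. Per3 was at 10.95 and 11.12 in set 1 and at 10.02 and 10.01 in set 2, and fell by 1.02 (SE 0.16, adjusted p = 0.036). Per2, which like Per3 and Per1 belongs to the negative arm of the circadian clock, was at 10.30 and 10.51 in set 1 and at 9.45 and 9.28 in set 2, and fell by 1.04 (SE 0.19, adjusted p = 0.045). Of 19 clock genes these 2 fell and none rose, with a median of -0.53 in Het and -0.29 in cKO. Both set 2 arrays were below both set 1 arrays for 11 (22.7% of all measured genes) and above for 1 (18.7%). Per1 differed by -0.60 (adjusted p = 0.068), while Arntl and Dbp differed by 0.20 and 0.05. Zbtb16, a zinc finger factor strongly induced by glucocorticoids, was at 11.80 and 11.87 in set 1 and at 9.79 and 10.10 in set 2, and fell by 1.89 (SE 0.16, adjusted p = 0.0097). Fkbp5, a chaperone that damps the receptor, fell by 1.23 (SE 0.22, adjusted p = 0.045), with -0.81 in Het and -1.65 in cKO. Pdk4, a kinase that limits glucose oxidation, fell by 1.37 (SE 0.21, adjusted p = 0.033), with -1.28 in Het and -1.46 in cKO. These 3 of 18 glucocorticoid response genes fell and none rose, with a median of -0.47 in Het and -0.24 in cKO, and of -0.59 over both after quantile normalization (-0.39 before). The sources used here give no hour of collection.

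Immediate early genes did not share a direction between the genotypes. Atf3, a stress-induced factor, was at 10.44 and 10.32 in set 1, at 9.47 in Het and at 14.17 in cKO of set 2. Nr4a1, an orphan receptor of the same kind of response, was at 9.43 and 9.05 in set 1, at 8.14 in Het and at 12.90 in cKO of set 2. The Het array of set 2 was the lowest of the 4 for 16 of 24 members (19.6% of all measured genes) while cKO of set 2 was the highest for 18. None of the 24 passed, and the list's median was -0.39 in Het and 1.12 in cKO. Cell dissociation is known to switch on these genes, and its part was not tested.

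**Figure D4:**
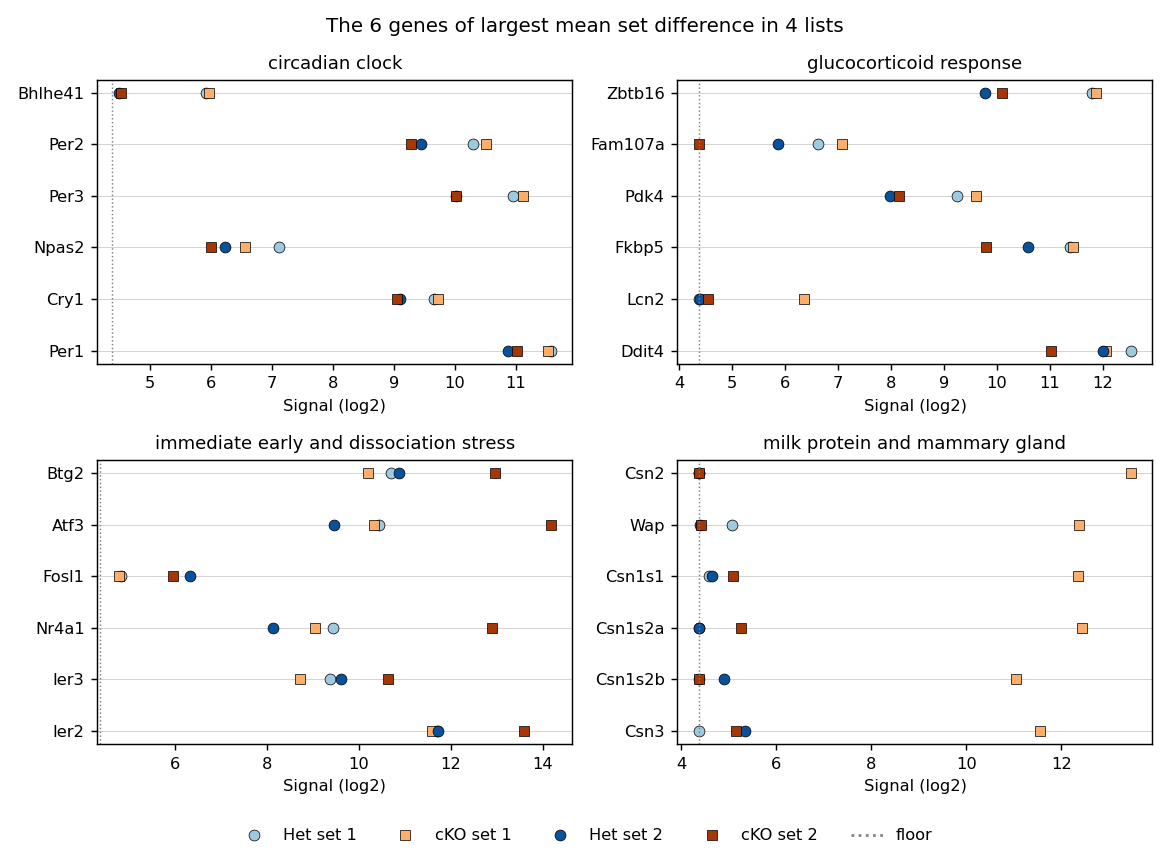
Signal (log2) on each total keratinocyte array for the 6 genes of largest mean set difference in 4 lists, with circles for Het, squares for cKO, pale for set 1 and dark for set 2, and the floor as a dotted line. Per2, Per3 and Zbtb16 are lower on both set 2 arrays, Atf3 is high at 14.17 on the cKO array of set 2 alone, and Csn2 at 13.46 on the cKO array of set 1 alone.

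The test of whether the set difference itself differed between Het and cKO found no gene among 12749 at an adjusted p under 0.05 (141 with an unadjusted p under 0.05). Its spread came from HG against bulge, since 4 arrays leave none. For genes that changed unlike in HG and bulge this spread was wide, with an SE of 3.66 for Krtap8-1 and 2.25 for Shh. The test could thus miss a difference in such genes. The largest values toward Het were Wfdc18, Krt33a, Snai3, Krtap11-1, Shh and Krtap8-1, from 4.38 to 5.62, and those toward cKO were Olig1, Zfp874a, Nr4a1, Atf3, Lce1h and Fosb, from -4.42 to -6.55. Wfdc18, a gene of the mammary gland, was at 9.22 on the cKO array of set 1 that carried milk protein RNA and at the floor in Het of set 1. In set 2 it was at 7.93 in Het and 7.16 in cKO, a difference of at least 3.56 in Het and of -2.06 in cKO. Olig1 was at 7.91 in Het of set 1, at 7.39 in cKO of set 2 and at the floor on the other 2 arrays. A gene for which the values of 2 genotypes lie far apart is thus not shown here to differ between them, nor to be alike.

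Against the sorted stem cells, no gene of 12749 passed the test of a different set difference in total keratinocytes (441 with an unadjusted p under 0.05). Its spread is that between the genotypes, whose set 2 stem cells the labels put in unlike states. The result therefore does not show the fractions to be alike. The hair shaft and sheath list had a median of 3.83 in Het total keratinocytes, 4.15 in Het HG and 0.50 in Het bulge. In cKO the medians were 0.52, 1.68 and 0.94. Krt25 was higher in set 2 in every fraction, by 7.06 in Het HG, 5.09 in cKO HG, 3.61 in Het bulge and 6.00 in cKO bulge. The cKO stem cells of set 2, which the labels call quiescent, carried more Krt25 signal than those of set 1. Of the 65 genes 2-fold higher in both genotypes of total keratinocytes, 72.3% were also 2-fold higher in Het HG (8.12% of all tested), 38.5% in cKO HG (2.12%), 32.3% in Het bulge (278 of 11121 tested) and 32.3% in cKO bulge (2.31%). Of the 188 lower genes, 64.4% were 2-fold lower in Het HG (16.6% of all tested), 11.7% in cKO HG (445 of 11121 tested), 45.7% in Het bulge (6.29%) and 22.3% in cKO bulge (5.26%). These arrays are not those compared above, but by the labels both could stem from the same mice. Slc26a7 differed by -1.46 in Het HG, -0.04 in cKO HG, -2.03 in Het bulge and -1.13 in cKO bulge. Dkk2 differed by 1.32 in cKO HG, against its fall in total keratinocytes.

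**Figure D5:**
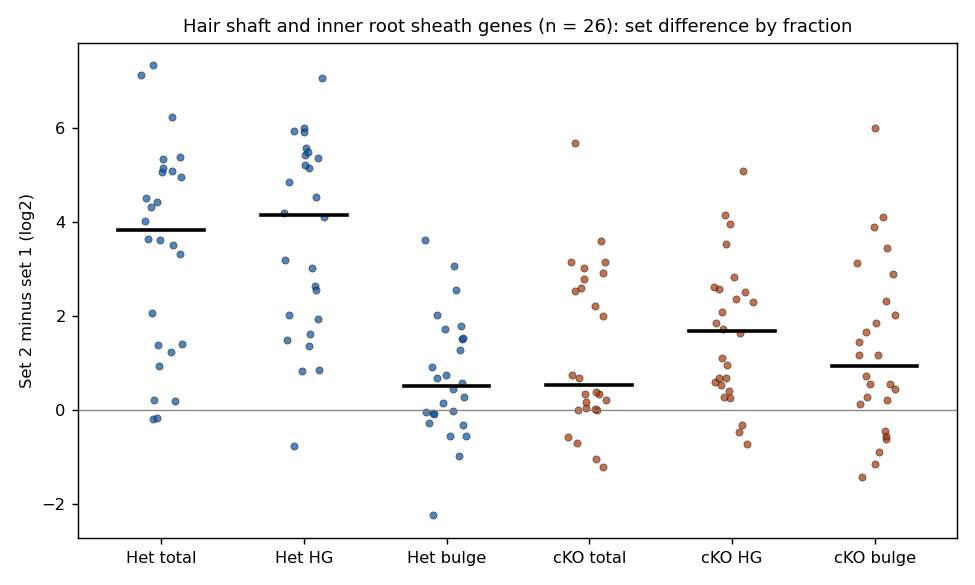
Set 2 minus set 1 (log2) for the 26 measured hair shaft and inner root sheath genes in total keratinocytes, HG and bulge, each point a gene and each bar the median over them, Het in blue and cKO in brown. The bars lie at 3.83, 4.15 and 0.50 in Het and at 0.52, 1.68 and 0.94 in cKO.

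Markers of other cells also differed between the sets. Col1a1, Col1a2, Col3a1 and Lum, matrix genes of fibroblasts, fell among 12 fibroblast genes, 11 of them tested. Over all tested genes 1.17% were called lower. Col1a2 was at 13.36 and 14.01 in set 1 and at 11.96 and 12.42 in set 2 (fell by 1.49, SE 0.14, adjusted p = 0.011). The list's mean level was 9.77 and 10.34 in set 1 and 9.19 and 9.24 in set 2, no member was at the floor on all 4 arrays, and the cKO array of set 1 was the highest for 12 of 12 (21.4% of all measured genes). In the Het pair alone the median was -0.48. Endothelial genes had a median of -0.60 in Het and -0.89 in cKO over 10, with a mean level of 5.92 and 5.89 in set 1 and 5.24 and 5.07 in set 2. Melanocyte genes had a median of -0.03 in Het and -1.14 in cKO. Only 5 endothelial and 8 melanocyte genes were tested, and none passed. Of these, 3 endothelial and 2 melanocyte genes entered the test only through set 1. Lyve1 and Twist1, named above among the lowest, are genes of lymphatic vessels and mesenchyme, and the part of such cells in the difference was not tested. T cell genes lay the other way by their median alone, at 0.50 in Het and 0.30 in cKO over 13, with no call. Both set 2 arrays were above both set 1 arrays for 2 of the 13 (18.7% of all measured genes) and below for 1 (22.7%).

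Oxidative phosphorylation genes had a median of 0.48 (0.54 in Het and 0.39 in cKO), which was 0.29 after quantile normalization. Both set 2 arrays were above both set 1 arrays for 19 of 21, against 18.7% of all measured genes. Cycs, cytochrome c, was at 13.31 and 13.41 in set 1 and at 14.17 and 14.15 in set 2, a rise of 0.80 (SE 0.13, adjusted p = 0.040). Ndufa1, a subunit of complex I, rose by 0.71 (SE 0.13, adjusted p = 0.046). Cox7c was the 1 member lower in both genotypes and entered the test only through set 1. It was at 8.12 and 7.41 in set 1 and at 6.14 and 6.33 in set 2 (adjusted p = 0.066). Fdps, an enzyme that makes farnesyl diphosphate, rose by 1.00 (SE 0.15, adjusted p = 0.031) as the 1 call among 17 cholesterol synthesis genes, whose median was 0.16 in Het and 0.21 in cKO.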

How the data were processed

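Each of 12 Affymetrix arrays was hybridized with biotin-labelled cRNA from sorted cells, per the labels' protocols. The deposited values are linear intensity, the MAS5 signal named, without a version, in the submitters' processing notes. The authors' scaling was read from the values, which have a 2% trimmed mean of 500 on all 12 arrays. No further normalization was done.

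The arrays hold 45101 probe sets, 64 of them controls and not used. Of the rest, 34945 had 1 gene symbol in GEO's platform annotation, 932 several and 9160 none. A gene was read from its brightest single-symbol probe set (mean log2 over 12 arrays), for 18193 genes. Signals under the pooled 25th percentile (20.7) were set to it before the log2. A gene entered a test if at least 2 arrays in it had a signal above 84.7, the pooled median.

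The sets were compared by the two-sided moderated test of limma (version 3.58.1, R 4.3.3), using lmFit and a trended eBayes with genotype as a block. Adjusted p-values are Benjamini-Hochberg's over all genes tested, with a threshold of 0.05. The pairing comes from the genotype labels, and p-values measure only the spread between these arrays. The number of arrays limits the precision. The genotype and stem cell contrasts used 12 arrays. In simulated data the number of false calls in the set comparison varied widely between draws, since 1 residual degree of freedom leaves the prior poorly estimated, so its adjusted p-values are approximate.

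The comparison and 40 gene lists, with 589 of 639 genes measured, were chosen with earlier results of these data known. Genes were named by a rule: Tgfbr2, Cd34, Cdh3, Krt5, Krt14 and Mki67; the 12 highest and 12 lowest by the smaller of the 2 genotypes' differences; the 6 highest and 6 lowest by their difference; and up to 6 of each list, with others where a count needs them. Arntl, Dbp, Gata3, Foxn1, Krt34, Krt33b and others beyond this rule were named after their values were seen. Alternatives covered the normalization, floor, filter, probe set choice, trend, block, fold minimum and each array left out. Promoters are RefSeq's, matched by symbol for 56 of the 65 genes 2-fold higher in both genotypes and 145 of the 188 lower.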

Additional observations from a re-analysis of the deposited data

How the results depend on the processing

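The precision is limited by 2 arrays per set. Of the 88 higher and 130 lower genes, a floor at the pooled median left 33 and 66, a filter at the 75th percentile gave 216 and 258, the mean of all probe sets 348 and 437, and all 12 arrays 2 and 1. No gene (0 and 0) passed without a filter, without the trend, without the replicate block, or in the Het pair or the cKO pair alone (739 and 572 with an unadjusted p under 0.05), 2 fits that were added after the values were seen and take their spread from 12 arrays. Leaving out each array gave 0 to 351 higher and 0 to 643 lower, in fits without the block that assume the lone array of a set to vary like the others. Quantile normalization gave 77 and 146, with 167 of the 218 shared, and no floor 70 and 122. All 218 kept their direction under these settings where tested, other than the mean of all probe sets, where 206 of 211 did. For several settings this was fixed in advance. Without the filter, the trend or the block, and with all 12 arrays, the difference itself is unchanged. In either pair alone its sign follows from the calls, which all moved the same way in both genotypes. The interaction gave 1 gene with a floor at the pooled median and otherwise none.

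The 65 higher and 188 lower 2-fold genes became 104 and 98 under quantile normalization, 36 and 116 with the floor at the median, 47 and 117 with the mean of all probe sets, 344 and 675 at 1.5-fold and 28 and 34 at 3-fold. With the mean of all probe sets Cdh3 turned to -0.053, Krt14 to -0.24 and the Hedgehog median to 0.041. Leaving out each array gave Mki67 differences of -0.30 (without Het of set 2) to 1.06 (without cKO of set 2), and it was 0.38 with all 4 and -0.22 in cKO alone. Quantile normalization turned the heat shock median to -0.047 and the dermal papilla median to 0.17. In cKO alone the medians turned for epidermal differentiation (0.16), barrier lipids (0.072), heat shock (-0.068), interferon response (-0.14) and MHC class II (0.072), and in Het alone for immediate early genes (-0.39) and milk proteins (0.073). Quantile normalization also moved the ribosomal protein median from 0.18 to 0.032. The mean of all probe sets moved the infundibulum median from -0.37 to -0.21 and the fibroblast median from -0.86 to -0.52. With the floor at the median the endothelial and muscle medians were 0. The cause of these changes was not tested.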

Other observations

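H2-Ea, an MHC class II gene that some mouse strains lack, was at 10.21 in Het of set 1 and at the floor on the other 3 total keratinocyte arrays. Cd74, of the same list, was between 9.33 and 11.46. Ifi27l2a, an interferon-induced gene, was at 9.71 and 8.85 in set 1 and at 11.53 and 9.80 in set 2. It rose by 1.38 (SE 0.23, limma adjusted p = 0.040), the 1 call among 22 interferon response genes, 18 of them tested. Over all tested genes 0.791% were called higher and 1.17% lower. Lepr, the leptin receptor, was at 9.09 and 8.82 in set 1 and at 7.37 and 7.23 in set 2. It fell by 1.65 (SE 0.24, adjusted p = 0.031), the 1 call among 11 dermal papilla genes, only 4 of them tested. Cpa3, Cma1 and Mcpt4, proteases of mast cells, differed by -1.51, -1.48 and -1.46 without passing. The medians of the interferon response, dermal papilla and CDK inhibitor lists were 0.09, -0.10 and 0.17.

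Medians over all measured genes were 0.24 for hypoxia and glycolysis, 0.18 for cytosolic ribosomal proteins, 0.20 for unfolded protein and amino acid stress, 0.25 for glutathione and antioxidant genes and 0.11 for heat shock, with no call. They were 0.0023 for wound keratinocyte genes, -0.44 for muscle, -0.18 for myeloid and mast cells and -0.18 for MHC class II. For adipocytes, Schwann cells and erythroid genes they were -0.07, -0.15 and 0.00, again with no call by limma. Tested were only 6 of 13 wound keratinocyte, 6 of 11 muscle, 14 of 16 myeloid and mast cell and 9 of 12 MHC class II genes. For adipocytes it was 2 of 9, for Schwann cells 3 of 6 and for erythroid genes 1 of 5. With 1.96% called over all tested genes, the absence of a call in lists this short shows nothing. The wound keratinocyte median was 0.36 in Het, 0.23 in cKO and 0.56 with no floor, so it depends on the floor.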
